A study of Mus musculus with 7 samples.

Results

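Amino acid and sugar carriers of the solute carrier superfamily were examined in labial cervical loops from mouse incisors, epithelial pockets that hold stem cells of the enamel organ. Members were all probes whose gene symbol belongs to the families Slc1, Slc2, Slc3, Slc5, Slc6, Slc7, Slc16, Slc38 or Slc43, with no measured value used. These were 120 probes of 83 genes among 25697 probes on the array. Mutant mice were K14CreER;Yap/Taz f/f, carrying floxed Yap and Taz together with a tamoxifen-inducible Cre recombinase under the keratin 14 promoter, which is active in epithelium, and control mice were Yap/Taz f/f without the Cre. At 8 weeks, mice of both genotypes were given 5 mg tamoxifen on each of 2 days running, and tissue was taken 48 hours after the last dose. Because no control carried the Cre, an effect of the Cre cannot be told apart from that of losing both genes. Total RNA of 4 mutant and 3 control samples was hybridised to 7 arrays on 2 BeadChips, the first with 2 mutant and 2 control arrays and the second with 2 mutant arrays and 1 control array. The labels do not say that the samples came from separate animals, so p-values measure the spread between these samples only.

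Solute carriers move nutrients across membranes. Facilitative sugar carriers of the Slc2 family let glucose enter and feed glycolysis, and monocarboxylate carriers of the Slc16 family pass lactate and related acids. Light chains of the Slc7 family pair with a heavy chain of the Slc3 family to exchange large amino acids. Some carriers of the Slc1 and Slc38 families use sodium to bring in neutral amino acids such as glutamine. Leucine and arginine inside the cell are sensed and allow the kinase complex mTORC1 to be activated at the lysosome by the GTPase Rheb.

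Between 13767 and 14752 probes were detected per array, where detection means a deposited detection p-value under 0.05. Median intensities were 80.8 to 86.2, and the number of arrays limits the precision. Yap1, 1 of the deleted genes, checked the labels: it fell by 0.68 in log2 units (limma adjusted p = 0.0443, SE 0.12), at 6.64 ± 0.25 in mutant arrays (SD, n = 4) and 7.27 ± 0.10 in control arrays (SD, n = 3). Its call held without mutant replicate 4 (adjusted p = 0.0458) and was lost without any other single array, with an adjusted p of 0.178, 0.203 or 0.118 when mutant replicate 1, 2 or 3 was dropped and of 0.0955, 0.162 or 0.156 when control replicate 1, 2 or 3 was dropped. Whether the Yap1 probe lies in the deleted part was not checked. Wwtr1, the gene of TAZ, measured 4.61 ± 0.26 in mutant arrays and 4.75 ± 0.20 in control arrays (SD, n = 4 and 3), a difference of -0.15 (adjusted p = 0.819). The dental epithelial markers Krt14, Krt5, Krt15, Cdh1, Sox2 and Shh were each detected on all 7 arrays by at least 1 probe. All 4 muscle markers were detected on no array. Of 6 endothelial markers Cldn5 alone was detected on at least 3.

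No carrier passed the test between the genotypes. Of the 120 carrier probes, 44 were detected on at least 3 arrays and were tested, and 0 of the 44 passed limma's test at an adjusted p under 0.05, against 0.0614% of all 14666 tested probes (9 probes, with 0.0341% higher and 0.0273% lower in mutant arrays). At an unadjusted p under 0.05, 2 carrier probes of 44 stood out, both higher in mutant arrays, against 8.00% of all tested probes in either direction (4.32% higher and 3.69% lower). Groups did not overlap for 2 carrier probes of 44, 1 in each direction, against 6.55% of all tested probes. The lowest adjusted p among the carriers was 0.438. Across the 44 probes the mutant minus control difference ranged from -0.22 to 0.34 on the log2 scale, with a median of 0.011 beside a median of 0.00025 over all tested probes. Differences were positive for 26 carrier probes and negative for 18, so 59.1% were positive, beside 50.1% of all tested probes. The median standard error of a carrier difference was 0.12, and the 95% interval reached a median of 0.25 to either side. The widest bound, for Slc2a9, was 0.63. These intervals are not adjusted for the number of probes. No difference below 0.63 in size passed on any tested probe, so smaller carrier changes could have been missed with 7 arrays. In bulk tissue, fewer cells of a type and less RNA per cell cannot be told apart.

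Detection of the carriers by family came first, because a probe that is not above background gives no more than a bound. Each gene being read through its brightest tested probe, 38 of 83 carrier genes were tested, 16 were detected on 1 or 2 arrays, and 29 on none. The share of probes tested was 36.7% among carriers and 57.1% over the array. Slc38 had 6 of 9 genes tested and Slc7 had 8 of 14. Slc16 had 6 of 12, Slc2 had 5 of 11, Slc6 had 6 of 17 and Slc5 had 3 of 10. Slc1 had 2 of 7, Slc43 had 1 of 2 and Slc3 had its single gene. By that count, 0 carrier genes were detected on 3 or more arrays of one genotype and on none of the other.

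**Figure D1:**
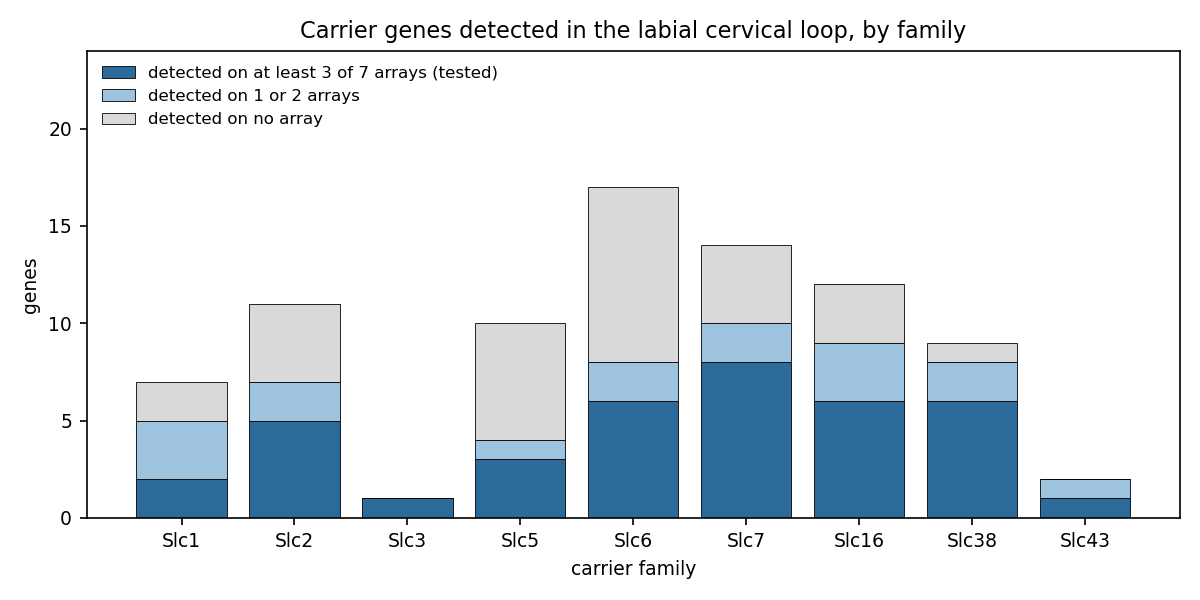
Number of carrier genes on the array in each family, split by the number of arrays on which the best detected probe was above the negative controls. Dark blue marks the 38 tested genes, light blue the 16 genes detected on 1 or 2 arrays and grey the 29 genes detected on none.

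Several carriers known for nutrient supply in growing cells were not well above background with the probes of this array. Slc1a5, the glutamine exchanger ASCT2, was detected on 0 of 7 arrays by either of its 2 probes. The lactate carrier gene Slc16a1 (MCT1), the glutamate carrier gene Slc1a3 and the insulin-responsive glucose carrier gene Slc2a4 (GLUT4) were each detected on 0 arrays by 1 probe. Slc5a1, the sodium-coupled glucose carrier of the intestine, and Slc7a8, the light chain LAT2, were also detected on 0 arrays, by 1 and 2 probes. Slc16a3, the lactate exporter MCT4, was detected on 2 mutant arrays and 0 control arrays by 1 of its 3 probes. Slc7a5 and Slc43a1, which encode the large amino acid carriers LAT1 and LAT3, had no probe under those symbols and were not analysed here.

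An intensity on this platform depends on the probe, so levels below are compared between samples and never between genes. Levels are normalised log2 intensities, and differences are mutant minus control from a fit with the chip as a term, so they can depart from the difference of the group means. For 6 tested carrier probes, all within 0.018 of 0, the fitted sign is the opposite of that between the means, Slc6a6, Slc2a10, Slc16a10 and Slc38a9 among them. Counts of positive and negative genes in the families below carry no test. Slc2a8, Slc2a9, Slc7a1, Slc7a3 and Slc7a15 were among the tested genes with further probes that were detected on fewer than 3 arrays and were not tested.

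Slc43a2 encodes LAT4, a sodium-independent carrier of branched-chain amino acids and phenylalanine, and was the carrier with the smallest p. It measured 4.77, 4.85, 4.75 and 4.87 in the 4 mutant arrays, against 4.44, 4.48 and 4.48 in the 3 control arrays. All 4 mutant arrays lay above all 3 control arrays, an arrangement found for 3.28% of all tested probes. The difference was 0.34 on the log2 scale (SE 0.11, 95% interval 0.12 to 0.57), or 1.27-fold (1.08 to 1.48), with an unadjusted p of 0.00486 and a limma adjusted p of 0.438, so it did not pass. On the first chip alone the difference was 0.35 and on the second it was 0.33. Leaving out single arrays moved it between 0.32 and 0.36, and it came to 0.15 with an offset of 50 and 0.10 without background correction. The probe was dim, with deposited intensities of 80.3 to 92.7 before background correction. A second Slc43a2 probe was detected on 1 mutant array and 0 control arrays and was not tested. The authors' deposited table gives the first probe means of 6.47 in mutant and 6.37 in control arrays on its own log2 scale, with a q-value of 0.214.

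Markers of other cell types were read on the same arrays, and their part in the Slc43a2 difference was not tested. The mean log2 level of the 3 tested Schwann cell markers of 5 was 5.06 to 5.46 in mutant arrays and 4.96 to 5.01 in control arrays. For 4 tested dental mesenchyme markers of 6 it was 5.00 to 5.41 in mutant arrays and 4.84 to 4.98 in control arrays, with Postn and Twist1 detected on no array. The 4 tested macrophage markers of 7 gave 4.88 to 5.07 in mutant arrays and 4.71 to 4.97 in control arrays, with Cd14 and Fcgr1 detected on none. The 3 tested ameloblast markers of 7 gave 6.79 to 8.24 in mutant arrays and 6.42 to 6.80 in control arrays, with Klk4 and Mmp20 detected on none. For 6 tested odontoblast and osteoblast markers of 8 the means were 5.16 to 5.91 in mutant arrays and 5.14 to 5.59 in control arrays. The endothelial marker Cldn5 gave 4.95 to 5.28 in mutant arrays and 4.95 to 5.13 in control arrays. No gene of these lists passed the test. Read by brightest tested probe, groups did not overlap for Ambn, Enam and Col1a1, beside 6.55% of all tested probes. All were higher in mutant arrays and were picked after their values were seen. The enamel matrix genes Ambn and Enam differed by 1.12 (SE 0.24, adjusted p = 0.160) and 0.90 (SE 0.18, adjusted p = 0.134). Within the first and second chips Ambn gave 0.57 and 1.95, and Enam 0.52 and 1.46. A second tested Enam probe overlapped. The collagen gene Col1a1 differed by 1.26 (SE 0.26, adjusted p = 0.152). In its list, Col1a2, Dspp, Ibsp and Sp7 lay between -0.016 and 0.038, and Bglap, at 0.63, overlapped. Less bright probes of the macrophage markers Adgre1 and Aif1, at 0.33 and 0.35, did not overlap either. For the list means, mutant and control ranges were apart for the Schwann cell and mesenchyme lists and overlapped for the others.

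The promoter of Slc43a2 is shown because it belongs to the carrier with the smallest p and holds the letters GGAATG, the core that TEAD factors, the DNA-binding partners of YAP and TAZ, are known to bind. The stretch covers the 250 bases before an annotated start (RefSeq, GRCm38.p6, chr11:75531444-75531693, plus strand). Capitals mark the match, read on the opposite strand as CATTCC, at position -167 from that start. The window of a second annotated start of Slc43a2, which begins at chr11:75531862, held no match.
Slc43a2: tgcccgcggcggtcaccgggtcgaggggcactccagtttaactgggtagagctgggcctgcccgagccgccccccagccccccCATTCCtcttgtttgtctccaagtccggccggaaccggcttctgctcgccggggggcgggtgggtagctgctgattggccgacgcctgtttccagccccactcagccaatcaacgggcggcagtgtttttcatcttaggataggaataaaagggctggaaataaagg
Both strands of windows from 250 bases before to 50 bases after each start were searched. GGAATG was found in 14.7% of all 32851 windows and in 5 of the 40 windows of tested carriers, which belong to Slc1a6, Slc43a2, Slc6a9 and Slc7a7. A window was at hand for 27 of the 38 tested genes. The amino acid response element TGATGNAAT, to which ATF4 is known to bind, was found in 0 of the 40 windows and in 0.965% of all windows. With so low a share over all windows, a count of 0 among 40 says nothing particular about the carriers. Other spellings of the element and bases outside the windows were not searched. A match describes the letters and is no evidence of binding, and a missing match is no evidence that a gene lacks an element.

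The sugar carriers of the Slc2 family gave 2 positive and 3 negative genes of 5 tested. Slc2a1, which encodes the basal glucose carrier GLUT1, measured 7.43, 7.22, 7.77 and 7.77 in mutant arrays and 7.79, 7.54 and 7.81 in control arrays. The pair of mutant arrays on the first chip was lower than both controls of that chip, while mutant replicates 3 and 4 lay within the range of the controls. Its difference was -0.22 (95% interval -0.47 to 0.028, adjusted p = 0.654), with -0.34 within the first chip and -0.044 within the second. It was -0.14 without mutant replicate 2, -0.13 without control replicate 1 and -0.34 without control replicate 3. Slc2a3, the high-affinity carrier GLUT3, averaged 5.55 ± 0.12 in mutant arrays (SD, n = 4) and 5.53 ± 0.23 in control arrays (SD, n = 3). Its difference of 0.00014 had a 95% interval of -0.26 to 0.26 and an adjusted p of 1.

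Slc2a9 encodes GLUT9, known mainly as a urate carrier, and was high in a single sample. It measured 5.13, 5.79, 4.76 and 4.84 in mutant arrays and 4.80, 5.06 and 4.83 in control arrays, so mutant replicate 2 stood above every other array. The difference was 0.31 (SE 0.15, adjusted p = 0.630). It was 0.53 for the first chip, -0.029 for the second, and 0.087 without mutant replicate 2. Dropping control replicate 1 gave 0.19 and dropping control replicate 3 gave 0.53. Slc2a8, the intracellular carrier GLUT8, differed by -0.15 (adjusted p = 0.774), and Slc2a10 by -0.0055 (adjusted p = 0.997). Slc2a10 was detected on 2 mutant arrays and 1 control array.

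The cationic amino acid carriers of the Slc7 family included the next carriers in rank. Slc7a4, a relative of these carriers, measured 5.06, 4.75, 5.00 and 5.08 in mutant arrays and 4.91, 4.43 and 4.72 in control arrays. Mutant replicates 1, 3 and 4 exceeded every control, and mutant replicate 2 did not. The difference was 0.27 (95% interval 0.0016 to 0.54), and with an unadjusted p of 0.0488 and an adjusted p of 0.622 it did not pass. It came to 0.41 without control replicate 1, 0.16 without control replicate 2 and 0.086 without background correction. Slc7a3, the arginine carrier CAT3, measured 4.59, 5.04, 4.91 and 4.77 in mutant arrays and 4.27, 4.67 and 4.67 in control arrays. It was detected on 4 mutant arrays and 2 control arrays. Its groups overlapped through mutant replicate 1, at a difference of 0.27 (95% interval -0.0034 to 0.55, adjusted p = 0.622). That value was 0.14 without mutant replicate 2, 0.16 without control replicate 1 and 0.088 without background correction. Slc7a1, the arginine carrier CAT1, measured 4.44, 4.48, 4.50 and 4.36 in mutant arrays and 4.46, 4.63 and 4.73 in control arrays, with a difference of -0.17 (adjusted p = 0.725). Within the first and second chips it came to -0.086 and -0.30, and without control replicate 3 to -0.085.

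**Figure D2:**
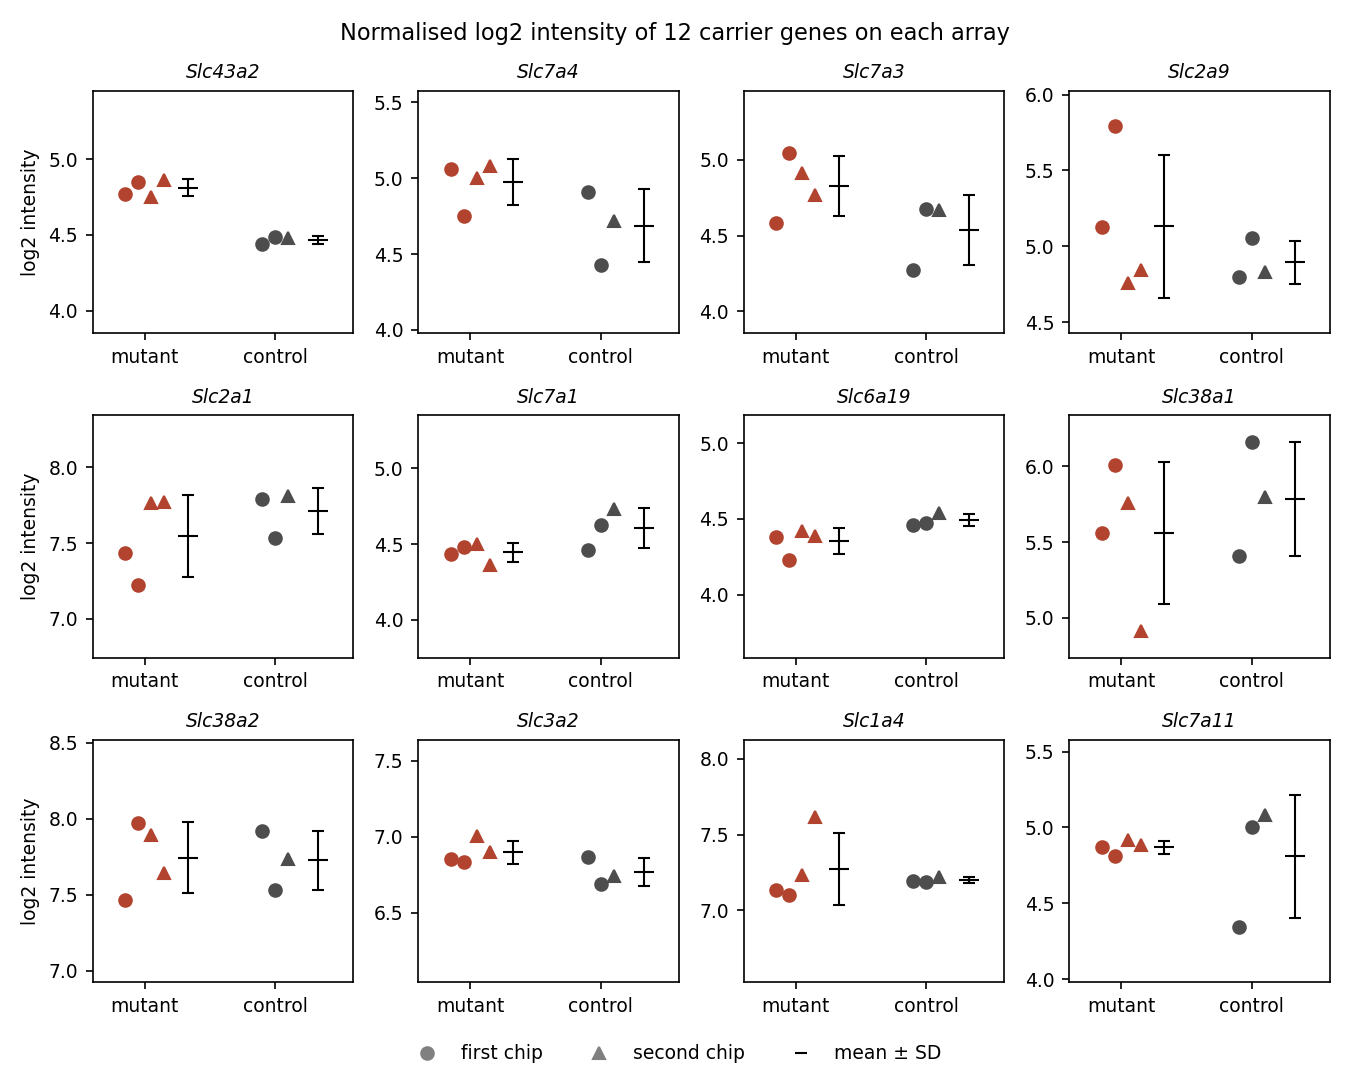
Normalised log2 intensity of 12 carrier genes on each array, with mutant arrays left and control arrays right, circles for the first chip and triangles for the second, and bars for mean ± SD (n = 4 and 3). Each panel spans the same log2 range. The groups are apart for Slc43a2 and Slc6a19 and overlap for the other genes, with mutant replicate 2 high for Slc2a9 and mutant replicate 4 high for Slc1a4 and low for Slc38a1.

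Slc7a2, the arginine carrier CAT2, had 2 tested probes of opposite sign. The brighter differed by -0.10 (SE 0.13, adjusted p = 0.877) and the other by 0.20 (SE 0.12, adjusted p = 0.675). Slc7a15 measured 4.71, 4.84, 4.64 and 4.83 in mutant arrays and 4.71, 4.58 and 4.44 in control arrays, a difference of 0.20 (SE 0.11, adjusted p = 0.677). Mutant replicates 1 and 3 lay below control replicate 1, so the groups overlapped.

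The light chains that pair with CD98 and their heavy chain gave small differences. Slc3a2, which encodes the CD98 heavy chain, averaged 6.90 ± 0.078 in mutant arrays (SD, n = 4) and 6.77 ± 0.092 in control arrays (SD, n = 3). Mutant replicates 1 and 2, at 6.85 and 6.83, lay below control replicate 1 at 6.87, so the groups overlapped, with a difference of 0.12 (95% interval -0.11 to 0.35, adjusted p = 0.817). Slc7a11, the cystine and glutamate exchanger xCT, measured 4.87, 4.81, 4.91 and 4.88 in mutant arrays and 4.34, 5.00 and 5.08 in control arrays. The spread was 0.043 in mutant arrays and 0.41 in control arrays (SD, n = 4 and 3), and control replicate 1 was the lowest of all 7 arrays. The probe was detected on 4 mutant arrays and 2 control arrays. The difference was 0.028 (adjusted p = 0.975), and -0.18 without control replicate 1. Slc7a6, the light chain y+LAT2, differed by 0.079 (adjusted p = 0.893). The light chain y+LAT1 of Slc7a7 had 2 probes at -0.067 and 0.0062.

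Sodium-coupled neutral amino acid carriers of the Slc38 family gave 2 positive and 4 negative genes of 6. Slc38a2, which encodes SNAT2, a glutamine and alanine carrier induced by amino acid shortage, had 3 tested probes that were detected on all 7 arrays. The brightest measured 7.46, 7.97, 7.90 and 7.64 in mutant arrays and 7.92, 7.53 and 7.73 in control arrays, and the groups lay across the same range. Its 3 differences were 0.013, 0.010 and 0.047, and the 95% interval of the first was -0.27 to 0.30. Slc38a9, the lysosomal arginine sensor that acts on mTORC1, also had 3 tested probes. They differed by -0.0059, 0.018 and -0.022, at adjusted p-values of 0.997, 0.980 and 0.976.

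Slc38a1, the glutamine carrier SNAT1, varied within both groups. It measured 5.56, 6.01, 5.75 and 4.91 in mutant arrays and 5.41, 6.16 and 5.79 in control arrays, with mutant replicate 4 the lowest of all. Its difference of -0.18 had the widest standard error among the carriers, 0.19 (adjusted p = 0.843). Within the first chip it came to 0.00028 and within the second to -0.46. Single arrays left out moved it between -0.42 (control replicate 1) and -0.00066 (control replicate 3). Slc38a4, a SNAT carrier known from the liver and placenta, differed by 0.15 (adjusted p = 0.801), with 0.28 and -0.046 within the first and second chips. It was 0.013 without mutant replicate 1, 0.062 without control replicate 2 and 0.28 without control replicate 3. Slc38a8 and Slc38a10 differed by -0.028 and -0.078, and were detected on 5 and 3 of the 7 arrays.

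In the Slc1 family, Slc1a4, the neutral amino acid exchanger ASCT1, measured 7.14, 7.10, 7.23 and 7.62 in mutant arrays and 7.19, 7.19 and 7.22 in control arrays. Mutant replicate 4 was higher than the other 6 arrays, and the difference was 0.037 (95% interval -0.21 to 0.29, adjusted p = 0.960). Slc1a6, the glutamate carrier EAAT4, differed by -0.073 (adjusted p = 0.899) and was detected on 2 mutant and 2 control arrays.

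Among carriers of neurotransmitters, taurine and creatine, the Slc6 family, 3 genes of 6 were positive and 3 negative. Slc6a6, the taurine carrier, measured 9.93, 10.12, 10.14 and 10.23 in mutant arrays and 10.28, 9.98 and 10.04 in control arrays. Its values overlapped throughout, with means of 10.10 in both groups and a fitted difference of -0.0049 (95% interval -0.25 to 0.24, adjusted p = 0.997). Slc6a8, the creatine carrier, differed by 0.092 (adjusted p = 0.882), with 0.24 and -0.13 within the first and second chips. Slc6a19, the neutral amino acid carrier B0AT1 of intestine and kidney, measured 4.38, 4.23, 4.42 and 4.39 in mutant arrays and 4.46, 4.47 and 4.54 in control arrays. All mutant arrays lay below all control arrays, as for 3.27% of all tested probes, and the gene was detected on 1 mutant array and 3 control arrays. Its difference of -0.15 (SE 0.11, adjusted p = 0.761) did not pass. Slc6a7, the proline carrier, differed by -0.16 (adjusted p = 0.763), Slc6a9, the glycine carrier GlyT1, by 0.12 (adjusted p = 0.817) and Slc6a15, a branched-chain amino acid carrier, by 0.15 (adjusted p = 0.827).

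The 6 tested members of the monocarboxylate family Slc16 split evenly, with 3 positive and 3 negative. Slc16a14 measured 4.68, 4.67, 4.34 and 4.22 in mutant arrays and 4.15, 4.63 and 4.24 in control arrays, and was detected on 2 mutant arrays and 1 control array. Its difference was 0.19 (adjusted p = 0.732), and both groups reached from below 4.3 to above 4.6. Without control replicate 1 it was 0.046, and without control replicate 2 it was 0.29. Slc16a11 differed by -0.16 (adjusted p = 0.774). Slc16a9, Slc16a6, Slc16a13 and the aromatic amino acid carrier gene Slc16a10 (TAT1) lay between -0.018 and 0.092. Sodium-coupled carriers of the Slc5 family were 3 of 3 positive without passing. Slc5a3, the myo-inositol carrier, was at 0.10, Slc5a6, the biotin and pantothenate carrier, at 0.059 and Slc5a8, a monocarboxylate carrier, at 0.0085. Slc5a3 was detected on 3 mutant arrays and 1 control array.

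**Figure D3:**
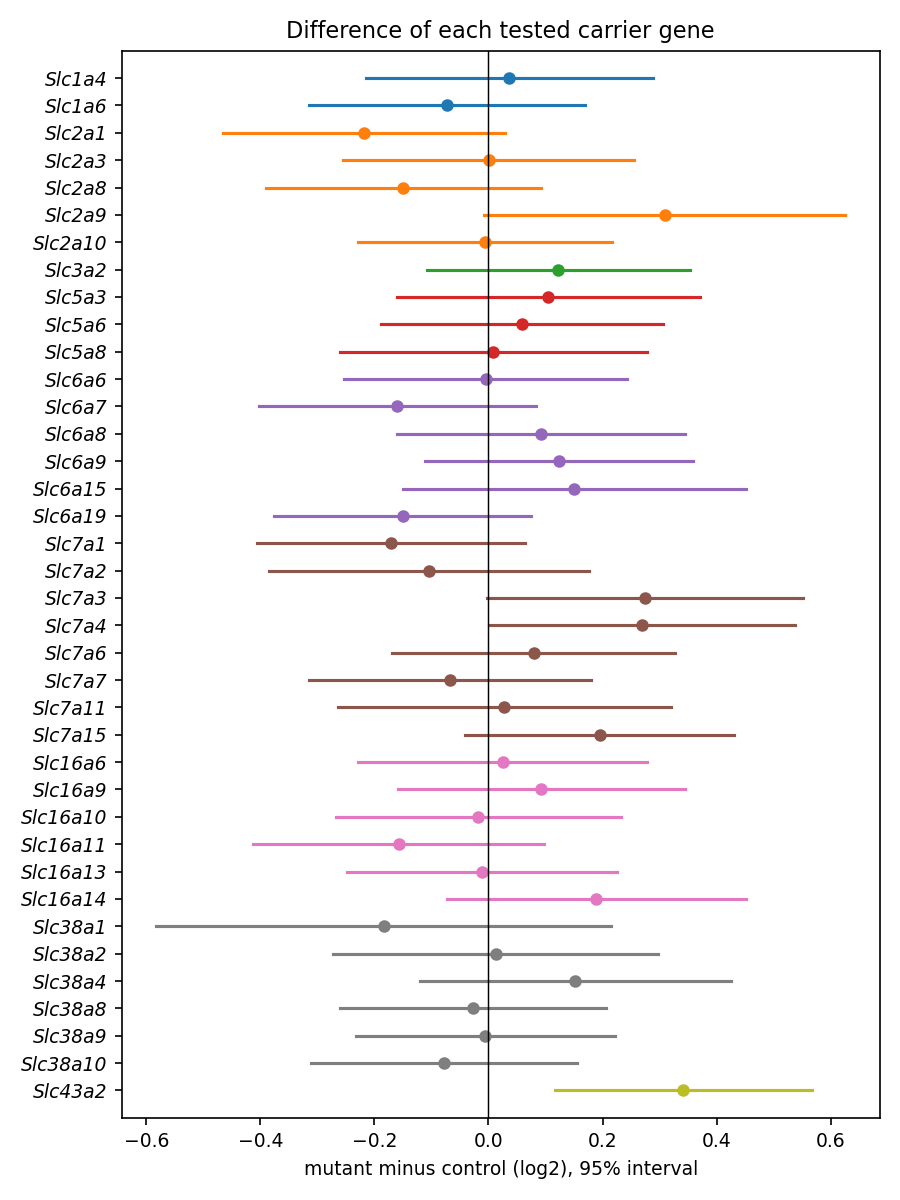
Mutant minus control difference of each of the 38 tested carrier genes on the log2 scale, 1 probe per gene, with its unadjusted 95% interval; colours mark families. The interval lies above 0 for Slc43a2 and Slc7a4 and includes 0 for the other genes, and no gene passed after adjustment.

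Differences were also taken within each chip. Of 38 genes, 11 were positive and 6 negative on both chips, and 21 (55.3%) had opposite signs, beside 45% of all 14666 tested probes. With 2 mutant arrays and 1 control array, the second chip rests on control replicate 3 alone on the control side. The differences of Slc43a2, Slc7a4 and Slc7a3 were positive on both chips, at 0.23 and 0.32 for Slc7a4 and 0.34 and 0.17 for Slc7a3.

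**Figure D4:**
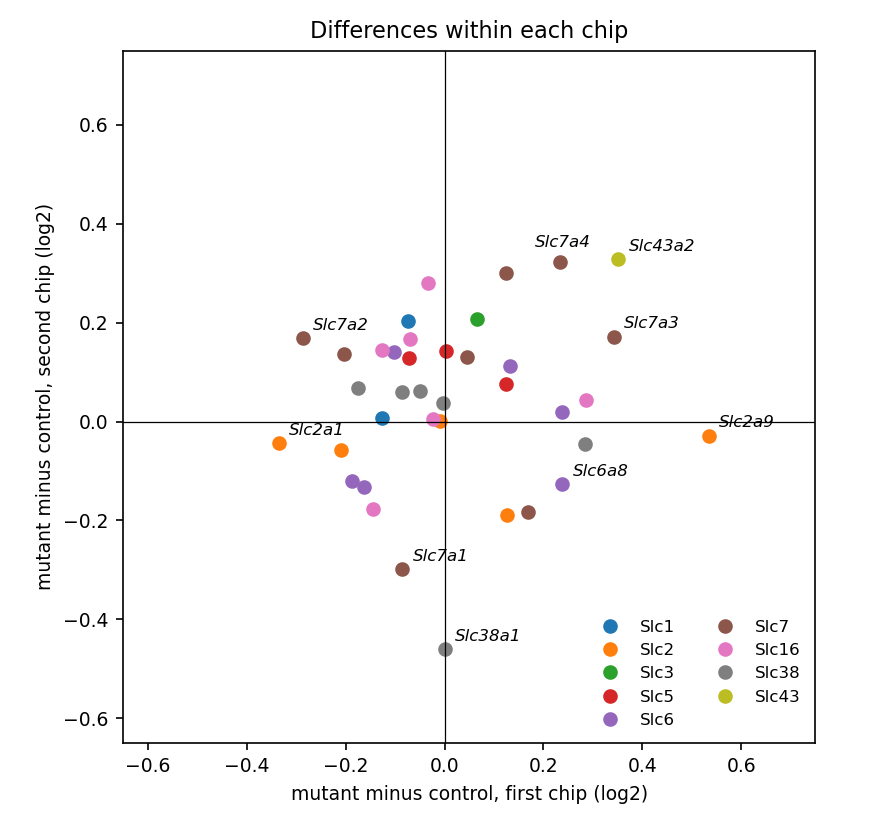
Mutant minus control difference of the 38 tested carrier genes within the first chip (x axis) and within the second chip (y axis), on the log2 scale, coloured by family. Slc43a2 lies at 0.35 and 0.33, Slc2a9 at 0.53 and -0.029, and Slc38a1 at 0.00028 and -0.46.

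Partners and regulators of the carriers were read from the same fit. Of 59 genes, 49 were tested and limma called 0 higher and 0 lower, while 6 of 49 genes had p under 0.05 before adjustment, beside 8.00% of all tested probes. The median difference of the 49 was -0.044, beside 0.00025 over all tested probes. Bsg, the chaperone basigin that brings monocarboxylate carriers to the membrane, differed by 0.18 (SE 0.12, adjusted p = 0.733), with a second probe at 0.063. Emb, the related chaperone embigin and named after its value was seen, measured 6.50 ± 0.10 in mutant arrays (SD, n = 4) and 6.81 ± 0.12 in control arrays (SD, n = 3). Its difference was -0.31 (SE 0.11, adjusted p = 0.488). Txnip, an arrestin relative that holds GLUT1 inside the cell, differed by 0.037 (adjusted p = 0.965).

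At the lysosome, Rheb, the GTPase that activates mTORC1, differed by -0.60 (SE 0.15, adjusted p = 0.295), at 8.52 ± 0.40 in mutant arrays (SD, n = 4) and 9.06 ± 0.21 in control arrays (SD, n = 3), and by -0.20 on a second probe. Without mutant replicate 4 the Rheb difference was -0.74 and passed (adjusted p = 0.0465). Sesn1, which encodes a sestrin, a family of mTORC1 inhibitors, differed by -0.37 (SE 0.11, adjusted p = 0.438) and -0.31 on a second probe. Sesn2, the leucine-sensing sestrin, differed by 0.23 (adjusted p = 0.638) and 0.19 on a second probe. Wdr59, a subunit of the GATOR2 complex that relays amino acid signals, differed by 0.29 (SE 0.12, adjusted p = 0.581). Lamtor3 and Rraga, named after their values were seen, differed by -0.29 (adjusted p = 0.52) and -0.25 (adjusted p = 0.583). Of the 28 tested genes listed for amino acid sensing at the lysosome, 10 were positive and 18 negative, beside 50.1% positive over all tested probes.

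In the authors' deposited table, 61 carrier probes are listed, all 44 tested ones among them, and 0 have a q-value under 0.05, beside 0.0757% of the 17174 probes it lists. The lowest q-value of a carrier in that deposited table is the 0.214 of Slc43a2. At an unadjusted p-value under 0.05, the authors' deposited table holds 8.20% of its carrier probes and 10.9% of all its probes. Its detection counts reach 16, though this series has 7 arrays, so which arrays its probe filter used is not known. Its counts and q-values are therefore not like for like with the fit used here.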

How the data were processed

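Biotin-labelled cRNA was hybridised to Illumina BeadChips, per the labels' protocols. Each deposited intensity is the mean of a probe's beads and was deposited without normalization, per the file headers. The authors also deposited a detection p-value per probe and array, and log2 values that had been normalised and then passed through ComBat, per the file headers and the table's name. Their deposited comparison holds p-values, q-values and a fold score that the authors made from these log2 values, which matches a ratio, with a sign, of the 2 group means. The summary software was not stated in those headers.

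Intensities were background corrected by normal-exponential convolution in limma 3.58.1 (R 4.3.3), the negative control distribution being derived from detection p-values, with an offset of 16, which compresses differences of dim probes. They were then taken to log2 and quantile normalised. Probes with a detection p under 0.05 on at least 3 arrays were fitted with lmFit and eBayes, with genotype and chip as terms (4 residual and 15.5 prior degrees of freedom). P-values are two-sided and adjusted over all 14666 tested probes by the Benjamini-Hochberg method. The fit was tested on simulated data. Alternatives changed the detection filter, background correction, offset, scaling, chip term, variance model, replicate block and samples.

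The members, lists and alternatives were chosen with earlier results of these data known. Named were the 8 carriers of smallest p in each direction and a set of nutrient carriers, with other members added as values. Of the partners, 2 of smallest p in each direction, Bsg, Txnip and Rheb were named. Emb, Lamtor3 and Rraga were added after their values were seen. Older symbols were matched through RefSeq (GRCm38.p6).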

Additional observations from a re-analysis of the deposited data

How the results depend on the processing

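No carrier passed under any of the 20 alternatives tried (lowest adjusted p 0.239), and neither did any named carrier. Slc43a2 stayed positive in all 19 fits that gave it a value, between 0.10 in the series matrix values and 0.36. The count of called probes over the array was less stable: 9 became 0 without the detection filter, without background correction, with an offset of 50 and in the series matrix values, at 1914, 1274, 1282 and 1536 probes below 0.05 before adjustment, and 1 on the first chip alone. It was 0 to 15 with single arrays left out: 0 when mutant replicate 1 or 3 or control replicate 2 was dropped (1020, 1202 and 1034 before adjustment), 1 with control replicate 3 dropped, 5 with mutant replicate 4 dropped, 10 with mutant replicate 2 dropped and 15 with control replicate 1 dropped. The Yap1 call held in 5 of 19 alternatives, and its direction in all 19. Median scaling gave 9 higher and 0 lower in place of 5 and 4, and moved the median of all tested probes to 0.068 and that of the carriers to 0.069, with 30 of 44 carrier probes and 68.5% of all tested probes positive. The median carrier difference was 0.052 on the second chip alone. Without the detection filter, 57 of 120 carrier probes were positive. Single arrays left out also moved the uncalled differences of Slc2a8 (-0.21 to -0.07), Slc3a2 (0.065 to 0.18), Slc6a7 (-0.23 to -0.076), Slc6a8 (-0.016 to 0.24), Slc7a15 (0.12 to 0.25) and Slc16a11 (-0.27 to -0.045). On the second chip alone Slc2a9 turned to -0.029 and Slc38a4 to -0.046. For partners and regulators 0 to 1 gene was called with single arrays left out. With the replicate number as a replicate block 1 was called, Rheb (difference -0.74, adjusted p = 0.0233), and the count over the array stayed at 9. Deviations of same-numbered arrays correlated at -0.019, 0.155 and 0.153, and those of differently numbered arrays at -0.142 to 0.106. Not every same-numbered pair was above 0.1, and no pairing was assumed. The pairs of replicates 2 and 3 were nevertheless the highest of all. Every same-numbered pair also shared a chip, and deviations were taken from the genotype means with no chip term. Differently numbered pairs on the same chip gave -0.033, 0.076 and 0.106. These correlations therefore cannot tell a pairing from a shared chip, and a pairing is not excluded. The causes of these shifts were not tested. For dim probes such as that of Slc43a2 the size of a difference depends on the background correction and offset. That of Slc43a2 was 0.34 in the main fit, 0.15 with an offset of 50 and 0.10 without background correction.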
